A study of Mus musculus with 34 samples.

Results

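NaJa-F is a mouse colorectal cancer cell line, and the data described here follow its RNA from day 1 to day 5 of culture in DMSO, the solvent of the drug used in the study. The comparison set the 3 libraries of NaJa-F in DMSO at day 5 against the 3 libraries of NaJa-F in DMSO at day 1, so it used 6 of the 34 libraries of the series, and all 14107 genes of the count table were tested. The line carries VillinCreERT2::BrafV600E/+::Trp53R172H::APCdel on a C57BL/6N background, as do the lines NaJa-D and NaJa-G. In the donor colon organoids, recombination was driven by a tamoxifen-dependent Cre under the Villin promoter, which is active in intestinal epithelium. Each line came from the peritoneal lavage of a single recipient mouse, so a line stands for 1 animal, and the study describes NaJa-D as epithelial, NaJa-G as mesenchymal and NaJa-F as intermediate. DMSO was given with fresh medium on day 0, and for the day 5 harvest also on days 2 and 4, so both harvests came 1 day after the last change of medium. Cells for both time points were plated together and confluence was checked before harvest. For comparison, the same change over time was taken in NaJa-D in DMSO (3 and 3 libraries), in NaJa-G in DMSO (3 libraries at day 1 and 2 at day 5) and in NaJa-F in 0.5 µM encorafenib, an inhibitor of mutant BRAF (3 libraries at day 1 and 2 at day 5). All of these share the engineered alleles and the medium.

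Cells kept in a dish for several days change their surroundings, and several pathways are known to respond. In WNT signalling, loss of APC leaves β-catenin free to drive TCF and LEF factors, and many of the genes switched on, such as Axin2, Nkd1, Notum and Rnf43, encode brakes on the same pathway. Mutant BRAF drives MEK and ERK, whose target genes include immediate early transcription factors and the DUSP and Sprouty feedback inhibitors. Sterol synthesis is set by SREBP factors that are released when cell cholesterol is low, while ATF4 turns on amino acid transporters and synthesis enzymes when amino acids are scarce. The mitochondrial genome encodes 13 mRNAs of the respiratory chain, which are transcribed inside the organelle and not by RNA polymerase II.

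Total counts were 58.4, 68.1 and 69.3 M in the day 1 libraries (replicates 1 to 3) and 59.4, 58.2 and 57.3 M at day 5. Levels are given as CPM, the counts of a gene relative to its library's total after TMM scaling. The replicates of day 5 lay close together, with a median SD per gene of 0.0485 log2 CPM, against 0.0889 at day 1. Day 1 replicate 3 stood apart: its pairs with the other day 1 libraries had 24.1 and 30.8 times the variance of counting noise, against 3.78 times for replicates 1 and 2 and 3.32 to 4.46 times at day 5. On the first principal component of these 6 libraries, which held 57.3% of the variance of the 500 most variable genes, the days were separated (scores of -17.2 to -7.10 at day 1 and 11.8 to 13.4 at day 5), and on the second (18.2%) day 1 replicate 3 scored -14.2 against 0.69 and 8.62 in the other day 1 libraries. Nothing states that replicates were separate cultures, so p-values measure a spread between libraries, which may be technical. That spread was estimated within the 12 groups of all 34 libraries and not from these 6 alone. With the 6 libraries alone 3314 genes were called, in place of the 2361 below. Library names run on in number from the day 1 to the day 5 set, so that the order of preparation and the day cannot be told apart. The library labelled NaJa-D DMSO day 1 replicate 3 names NaJa-G in its cell line field, was kept under its title and enters the comparison with NaJa-D below (without it, 2156 genes were called in NaJa-F in place of the 2361 below). Its log2 CPM correlated across genes at 0.995 and 0.995 with replicates 1 and 2 of its titled group and at 0.917 to 0.920 with the 3 NaJa-G libraries of DMSO at day 1, and its mitochondrial share of counts was 8.01%, against 6.59 and 6.66% in replicates 1 and 2 and 4.14 to 4.61% in those of NaJa-G.

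Between day 1 and day 5, 2361 genes were called at an adjusted p below 0.01, which is 16.7% of all genes tested. Of these, 1372 genes were higher at day 5 (9.73%) and 989 were lower (7.01%). These 2 shares are the background for counts of list members in NaJa-F in DMSO below. Over all genes, 1938 were called higher and 2152 lower in NaJa-D in DMSO, and 2432 and 2372 in NaJa-G in DMSO. In NaJa-F in encorafenib, 1433 were called higher and 1741 lower. The time change of NaJa-F in DMSO differed from these in 4.42, 6.27 and 5.88% of all genes, in that order. Most changes in NaJa-F in DMSO were small. The median absolute log2 fold change of the called genes was 0.36, 1684 of them (71.3%) moved by less than 0.5, and 197 moved by at least 1, of which 175 rose and 22 fell. Of the 175 genes that rose by at least 1, 132 averaged under 2 log2 CPM. The libraries of the days did not overlap in 7240 genes (51.3%), and in 2360 of the called genes. The split between higher and lower depended on the scaling: with libraries scaled by their totals alone the median of all genes was 0.08 rather than 0.00 and 78.6% of 2767 calls were higher, against 58.1% here. Changes are therefore relative to a median gene, and as the samples were bulk, fewer cells of a kind and less RNA per cell cannot be told apart. The number of calls without 1 library was lowest without day 1 replicate 2 (1462), 1572 genes were called without day 5 replicate 3 and 1944 without day 1 replicate 3.

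The genes of the engineered alleles were not called in the main fit. Braf, the driver kinase, had 37.0, 35.7 and 38.8 CPM at day 1 and 45.3, 45.4 and 45.0 CPM at day 5 (log2 fold change 0.28 ± 0.10, SE, adjusted p = 0.035). Trp53 had 184, 189 and 189 CPM against 183, 180 and 179 CPM (-0.05 ± 0.05, adjusted p = 0.49), a value that turned to 0.03 with scaling by library totals. Apc had 213, 213 and 196 CPM against 240, 248 and 242 CPM (0.23 ± 0.08, adjusted p = 0.041). None of the 3 passed the threshold in this fit. Their libraries did not overlap between the days, which held for 51.3% of all genes. Braf and Apc were called when only the 6 NaJa-F DMSO libraries, or only the NaJa-F libraries, were fitted. Apc was also called with scaling by library totals. These counts cover whole genes and do not tell the engineered alleles from others.

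Many WNT feedback and stem cell genes rose. Of 18 list members in the table, 10 rose and 0 fell, with a median log2 fold change of 0.31, beside 0.00 over all genes and a background of 9.73% called higher. Notum, a secreted enzyme that inactivates WNT ligands, had 6.69, 6.60 and 6.72 CPM at day 1 and 25.2, 26.3 and 23.2 CPM at day 5 (1.90 ± 0.15, adjusted p = 2.8e-10). Nkd1, a cytoplasmic inhibitor of the pathway, had 8.87, 9.77 and 7.85 CPM against 28.1, 29.5 and 27.0 CPM (1.68 ± 0.11, adjusted p = 7.4e-12). Every day 5 library was above every day 1 library in both genes. Lgr5, the R-spondin receptor that marks intestinal stem cells, had 1.58, 1.63 and 1.65 CPM against 5.55, 4.81 and 5.20 CPM (1.67 ± 0.12, adjusted p = 3.1e-11). Axin2, the scaffold of the β-catenin destruction complex and a standard readout of the pathway, was far more abundant and rose less, from 162, 159 and 163 CPM to 247, 239 and 223 CPM (0.55 ± 0.06, adjusted p = 1.6e-07). The transcription factor genes of the list that rose were Lef1 (0.81 ± 0.16), Tcf7 (0.38 ± 0.06) and Prox1 (1.20 ± 0.23), the last at 0.51 CPM on average at day 1 and 1.16 CPM at day 5. The remaining risers were the membrane inhibitor Apcdd1 (0.40), the secreted stem cell marker Smoc2 (0.36) and the receptor Lgr4 (0.26), whose call was lost when any of 5 of the 6 libraries was left out. Members below the threshold included Sox9 (-0.19, adjusted p = 0.21), Ephb3 (-0.14) and Sp5 (-0.16). The letters CTTTGA, the core of a TCF or LEF site, were sought on both strands around the start of each gene (250 bases before to 50 after), a motif chosen with the data in view. They stood in 2 of the 12 list genes that had a promoter in the table, Sp5 and Lef1, and in 14.0% of 10225 promoters of tested genes.

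**Figure D1:**
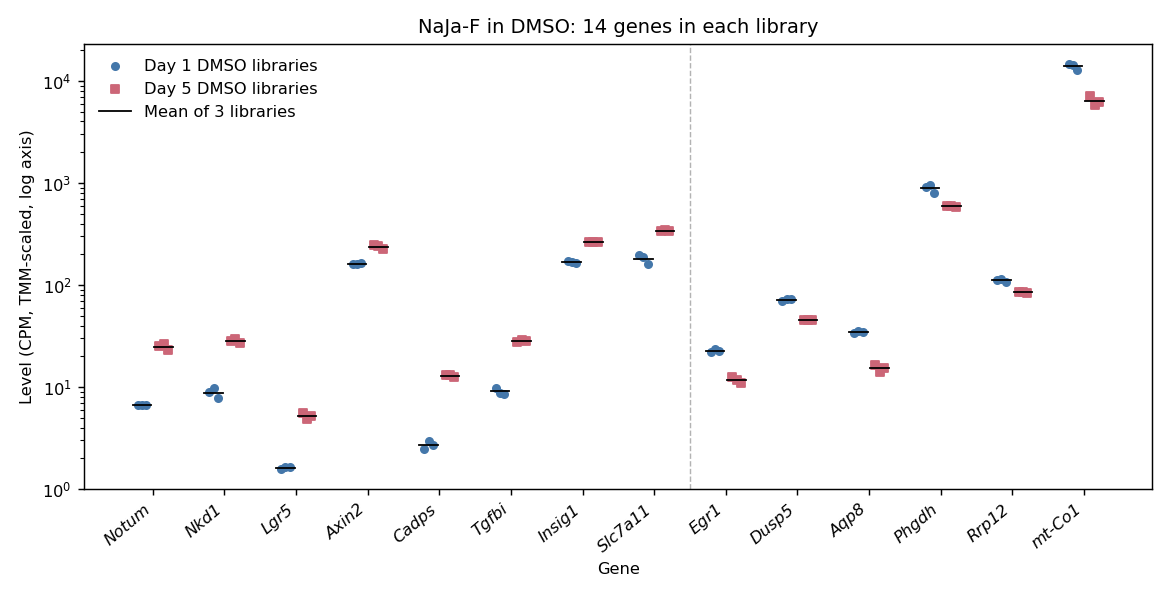
Level of 14 genes (x axis) in each NaJa-F DMSO library (CPM, TMM-scaled, log y axis), with day 1 as blue circles, day 5 as red squares and the mean of 3 libraries as a black line; the dashed line parts genes that rose from genes that fell. The days do not overlap in any of the 14 genes, and Notum goes from 6.60 to 6.72 CPM at day 1 to between 23.2 and 26.3 CPM at day 5.

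The WNT genes moved otherwise in encorafenib and to other extents in NaJa-G. In NaJa-F cells kept in encorafenib, the median of the list over the same days was -0.02, with 2 members called higher and 5 called lower. In that arm the time in culture and the time in the drug cannot be told apart. At day 1 Notum and Nkd1 already averaged more in encorafenib (17.0 and 14.4 CPM) than in DMSO (6.67 and 8.83 CPM). The time change in DMSO differed from that in encorafenib in 10 of the 18 genes, against 5.88% of all genes. Nkd1 averaged 14.4 CPM at day 1 and 4.58 CPM at day 5 in encorafenib (-1.64), so that the difference of the changes was 3.32 (adjusted p = 4.7e-13). Notum went from 17.0 to 8.02 CPM in encorafenib (-1.07), a difference of 2.97 (adjusted p = 1.2e-10), and Smoc2 from 15 to 4.38 CPM (-1.77), a difference of 2.13. Lgr5 was the exception among the strong risers, with a rise in encorafenib too (2.76 to 4.38 CPM, 0.67) that was smaller than in DMSO by 1.00 (adjusted p = 6.4e-05). In NaJa-D, 5 members rose and 2 fell in DMSO (median 0.23), and 2 members differed from NaJa-F: Apcdd1, which fell in NaJa-D (-0.55), and Znrf3. In NaJa-G, 12 rose and 0 fell (median 0.54), and 8 differed from NaJa-F. Of these 8, Apcdd1 (1.60 in NaJa-G), Axin2 (0.92) and Rnf43 (0.95) changed more in NaJa-G, whereas Nkd1 (1.10) changed less.

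**Figure D2:**
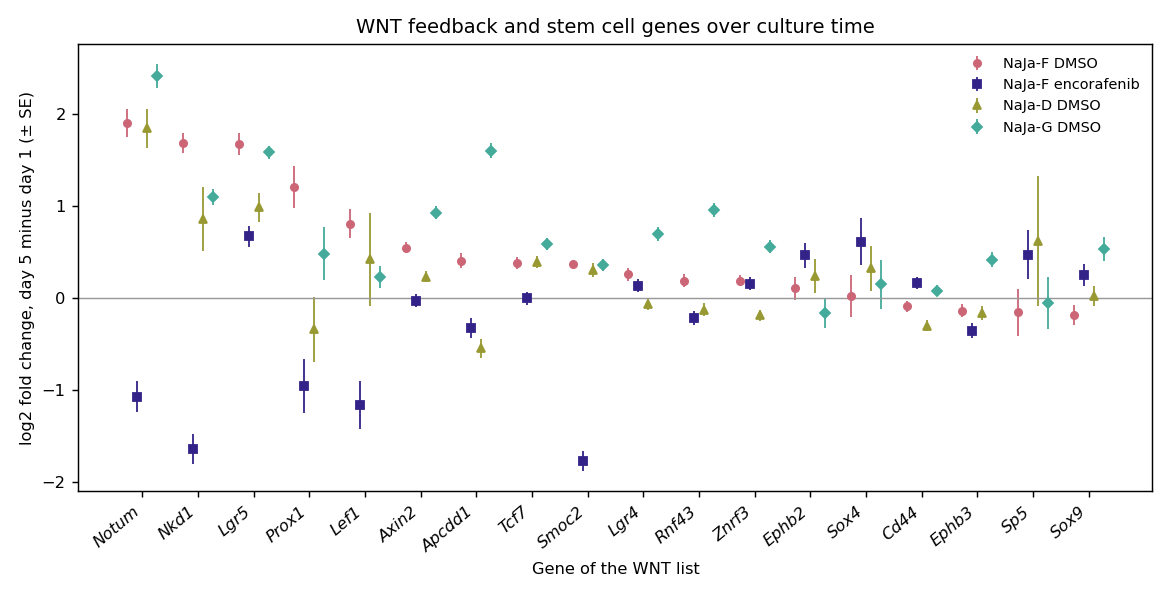
Change of the 18 WNT list genes (x axis, ordered by NaJa-F DMSO) from day 1 to day 5, as log2 fold change with its SE (y axis), in NaJa-F DMSO (circles), NaJa-F encorafenib (squares), NaJa-D DMSO (triangles) and NaJa-G DMSO (diamonds). Notum lies at 1.84 or above in DMSO in all 3 lines, and Notum and Nkd1 lie at -1.07 and -1.64 in NaJa-F in encorafenib.

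The highest of the called genes above 2 log2 CPM, the WNT list included, was Cadps, a regulator of dense core vesicle release, which rose from 2.49, 2.97 and 2.69 CPM to 13.1, 13.3 and 12.5 CPM (2.25 ± 0.10, adjusted p = 9.6e-15). It lies on chromosome 14 (12372563 to 12823079, GRCm38), and Notum on chromosome 11 (120653788 to 120661175). Tgfbi, a secreted matrix protein induced by TGF-β, rose from 9.74, 8.80 and 8.63 CPM to 27.3, 29.1 and 28.1 CPM (1.64 ± 0.11). Enpp2, the secreted enzyme autotaxin, rose from 12.6, 13.1 and 14.6 CPM to 42.7, 37.8 and 40.9 CPM (1.59 ± 0.09). Sema5a, a semaphorin, rose from 26.9, 24.8 and 21.5 CPM to 70.2, 70.9 and 68.6 CPM (1.53 ± 0.10). The groups did not overlap in any of these. The rest of the 15 highest were Kif26b (1.85), Gabrp (1.71), Dync1i1 (1.70), Cyfip2 (1.63), Penk (1.44), Gsta4 (1.39), Prdm1 (1.38), Sprr2a3 (1.37) and Adam19 (1.32), besides Notum and Nkd1. Sprr2a3 belongs to a family of near-identical copies and its counts are uncertain.

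The 15 lowest genes included a gene of colon epithelium and 2 cornified envelope genes. The lists of enterocyte genes and of cornified and squamous type genes did not fall as a whole. Of 12 enterocyte genes 4 rose and 2 fell (median 0.23). Of 17 cornified and squamous type genes 2 rose and 1 fell (median 0.10), and 1 of these risers, Sprr2a3, is among the 15 highest above. That list does not hold Lce1h or Lce1g, so it does not describe them. Aqp8, a water channel of colon epithelium, fell from 33.8, 35.1 and 34.3 CPM to 16.6, 14.0 and 15.4 CPM (-1.17 ± 0.12, adjusted p = 5.5e-08). The cornified envelope genes Lce1h (-1.25) and Lce1g (-1.07), the phosphatidylethanolamine binding gene Pbp2 (-0.94) and the prolactin family gene Prl2c3 (-0.92) fell as well. Lce1g, Lce1h and Prl2c3 also come from multigene families that can share reads. Egr1, 4 mRNAs of the mitochondrial genome and 4 nuclear pseudogene copies of mitochondrial sequence were also among them and are described below.

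Several ERK feedback and output genes fell and others rose. Of 18 members, 8 fell and 4 rose (median -0.20), beside 7.01% of all genes called lower and 9.73% called higher. Without day 1 replicate 3, 4 fell and 2 rose, and with scaling by library totals 4 fell and 6 rose. Without day 5 replicate 1 or 2, 2 rose. Egr1, an immediate early transcription factor, went from 21.9, 23.4 and 22.7 CPM to 12.6, 11.8 and 10.9 CPM (-0.95 ± 0.10, adjusted p = 5.7e-08). Dusp5, a nuclear ERK phosphatase, went from 69.3, 73.0 and 72.6 CPM to 45.4, 44.9 and 45.4 CPM (-0.66 ± 0.08, adjusted p = 1.1e-06). Fosl1, an AP-1 subunit, went from 105, 111 and 119 CPM to 87.6, 80.5 and 77.2 CPM (-0.45 ± 0.09, adjusted p = 4.0e-04). In each of the 3 genes the day 5 libraries lay below all day 1 libraries. Spry2 (-0.36), Phlda1 (-0.37), Epha4 (-0.31), Epha2 (-0.29) and the ERK phosphatase gene Dusp6 (-0.28, adjusted p = 0.0064) also fell. The Epha2 call was lost without any 1 of the 6 libraries and the Dusp6 call without any of 5 of them. The inhibitors Spred2 (0.40 ± 0.06) and Spred1 (0.23) rose, as did the ETS factors Etv5 (0.30) and Etv1 (1.76, at 0.27 CPM on average at day 1 and 0.89 CPM at day 5), while Etv4 had 82.7, 84.2 and 89.9 CPM against 87.5, 89.3 and 88.1 CPM (0.05, adjusted p = 0.62). Of 17 immediate early genes in a further list, Egr1 and Fosb (-0.76 ± 0.09) fell and Klf4 (0.25) rose, with Jun, Junb and Myc at -0.37, -0.51 and -0.25 below the threshold (adjusted p = 0.035, 0.093 and 0.016). In encorafenib, 6 of the 18 ERK list genes changed otherwise over the same days, with Egr1 at 0.52 (difference -1.47, adjusted p = 4.3e-08) and Dusp6 at 0.39 (difference -0.66, adjusted p = 9.0e-05).

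Several pericellular protease and laminin genes fell. Of 17 proteases and inhibitors, 5 fell and 0 rose (median -0.16; background 7.01% called lower). Serpinb2, an inhibitor of plasminogen activators, had 27.1, 26.9 and 26.1 CPM at day 1 and 15.9, 13.4 and 14.5 CPM at day 5 (-0.87 ± 0.07, adjusted p = 1.1e-09). Timp1, an inhibitor of metalloproteinases, had 86.9, 92.2 and 82.8 CPM against 49.1, 48.3 and 48.7 CPM (-0.84 ± 0.09). The urokinase gene Plau (-0.37) and its receptor gene Plaur (-0.38) fell less. Of 23 collagen and basement membrane genes, 6 rose and 5 fell (background 9.73% called higher). Among the genes that fell were the laminin chain genes Lama3 (-0.46, from 247, 263 and 246 CPM to 181, 187 and 181 CPM), Lamb1 (-0.37) and Lamb3 (-0.36). Fn1, which encodes fibronectin, fell from 9865, 10136 and 9130 CPM to 7223, 7329 and 7177 CPM (-0.42 ± 0.08, adjusted p = 1.5e-04). The risers were Col12a1 (1.20), Col5a1 (0.50), Col6a1 (0.74), Col6a2 (1.09), Col3a1 (1.64) and the basement membrane gene Nid1 (0.70), and all but Col12a1 and Col5a1 averaged under 8 CPM at both days. In NaJa-G, Fn1 was at 0.24 and Lamb3 at 0.16, and both differed from NaJa-F (adjusted p = 2.2e-04 and 0.0025).

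Ribosome biogenesis genes fell by small amounts. Of 20 genes in the list of MYC targets and nucleolar factors, 15 fell and 0 rose (median -0.26; background 7.01% called lower). Rrp9, a factor of small subunit processing, had 83.0, 88.2 and 82.6 CPM at day 1 and 62.5, 59.6 and 60.1 CPM at day 5 (-0.48 ± 0.09, adjusted p = 3.0e-04). Srm, spermidine synthase, had 148, 159 and 141 CPM against 114, 112 and 111 CPM (-0.41 ± 0.08, adjusted p = 4.0e-04). Odc1, which makes putrescine, had 532, 545 and 485 CPM against 404, 404 and 402 CPM (-0.37 ± 0.08). Rrp12 (-0.39), Bop1 (-0.36) and Nop16 (-0.34) lay in the same range. The days did not overlap in 19 of the 20 genes, against 51.3% of all genes, and Gnl3 was at 0.14 (adjusted p = 0.40). The fall in NaJa-G was larger (median -0.64), and the difference from NaJa-F passed the test in 10 of the 20 genes, among them Nolc1 (-0.70 in NaJa-G) and Rrp12 (-0.73). In NaJa-D the median was -0.43 and 1 gene, Polr1b, differed. No member differed between DMSO and encorafenib in NaJa-F. Of the 22 cytosolic ribosomal protein genes, Rpl3 fell (-0.29) and the other 21 did not pass the test, although the median was -0.25 and all 22 were free of overlap between the days (51.3% of all genes were).

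Some replication and mitosis genes fell, and most did not pass the test. Among 25 DNA replication genes 6 fell and 0 rose (median -0.18, with 7.01% of all genes called lower), and 3 fell without day 1 replicate 1 or 2. Among them was Cdc6, a licensing factor, with 57.3, 58.3 and 59.5 CPM against 47.4, 46.6 and 46.6 CPM (-0.32 ± 0.05, adjusted p = 1.9e-05). Cdc25a, a phosphatase that activates CDKs, had 93.4, 90.6 and 88.9 CPM against 75.6, 73.6 and 72.1 CPM (-0.30 ± 0.04, adjusted p = 9.4e-06). E2f1 (-0.30), cyclin E gene Ccne1 (-0.29), Tyms (-0.25) and Chaf1a (-0.18) completed the 6. Among 25 mitosis genes 4 fell and 0 rose (median -0.07), Cdc20 (-0.33), Ccnf (-0.32), Aurka (-0.29) and Birc5 (-0.21), and 2 fell without day 1 replicate 1 or 2 or day 5 replicate 3. The proliferation marker Mki67 had 717, 710 and 785 CPM against 753, 812 and 797 CPM, with overlap between the days (0.10, adjusted p = 0.52), and it differed from NaJa-D, where it was at -0.52 (difference 0.62, adjusted p = 0.0061). In the list of CDK inhibitors and quiescence genes, 4 of 16 rose (1 or 2 without any 1 of the 6 libraries), among them the pocket protein gene Rbl2 (0.37 ± 0.05, adjusted p = 1.7e-06), and Cdkn2d fell (-0.35).

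**Figure D3:**
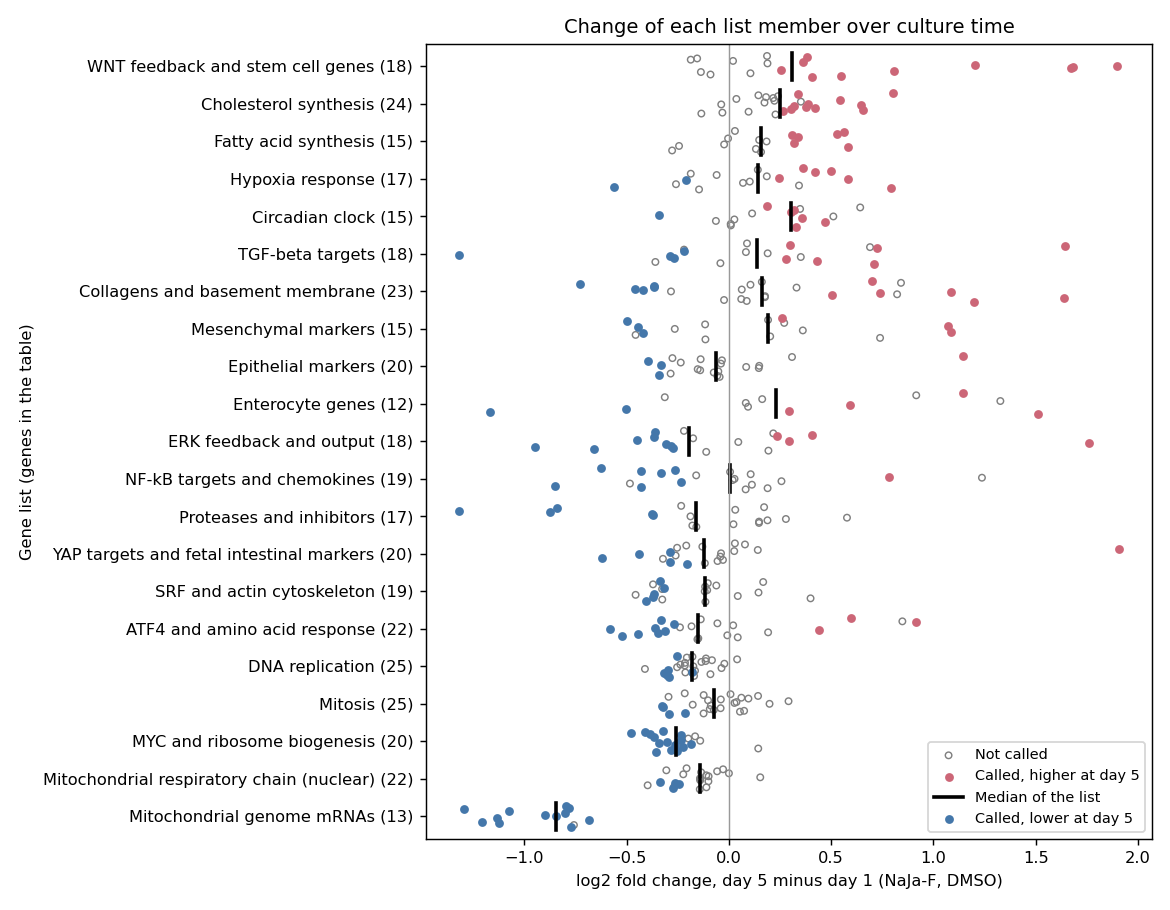
log2 fold change from day 1 to day 5 in NaJa-F DMSO (x axis) of each member of 21 gene lists (y axis, with the number of genes in the table), with called genes as filled points (red higher, blue lower), other genes as open points and the median of the list as a black bar. The WNT list has 10 red and 0 blue points, and the mitochondrial genome list has 12 blue points and a median of -0.85.

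Some genes of sterol and fatty acid synthesis rose, and most members of both lists did not pass the test. Of 24 cholesterol genes 11 rose and 0 fell (median 0.25; background 9.73%). Insig1, a sterol-regulated brake on SREBP processing, had 173, 167 and 165 CPM at day 1 and 263, 262 and 265 CPM at day 5 (0.64 ± 0.07, adjusted p = 3.3e-08). Hmgcs1, the enzyme that makes HMG-CoA, had 164, 158 and 142 CPM against 210, 205 and 204 CPM (0.42 ± 0.06, adjusted p = 2.8e-06). Day 1 replicate 3 was the lowest of the 3 day 1 libraries in both genes, and the count was 9 of 24 without it. With scaling by library totals 18 of 24 rose. Tm7sf2 (0.80), Fdps (0.65), Nsdhl (0.54) and Lss (0.39), further enzymes of the pathway, rose too. Of 15 fatty acid synthesis genes 6 rose and 0 fell (median 0.16), with the desaturase Scd2 at 1254, 1216 and 1055 CPM against 1680, 1771 and 1750 CPM (0.56 ± 0.07) and Scd1 at 0.53. In NaJa-G all 24 cholesterol genes rose (median 0.74), and 15 of them differed from NaJa-F, as did 6 of the 15 fatty acid genes, where Scd2 was at 1.66 in NaJa-G. In NaJa-D 16 of the 24 rose (median 0.47), and Insig1 (1.37) and Lss (0.78) differed from NaJa-F. No cholesterol gene differed between DMSO and encorafenib in NaJa-F.

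The promoter of Hmgcs1 is shown because it was the 1 promoter, of 16 list genes with an entry, that held the SREBP site letters TCACNCCAC on either strand (capitals), against 1.46% of all promoters. It is the RefSeq sequence of GRCm38.p6, chr13:119690101-119690400, plus strand, 250 bases before to 50 after the start, 5′ to 3′.
Hmgcs1: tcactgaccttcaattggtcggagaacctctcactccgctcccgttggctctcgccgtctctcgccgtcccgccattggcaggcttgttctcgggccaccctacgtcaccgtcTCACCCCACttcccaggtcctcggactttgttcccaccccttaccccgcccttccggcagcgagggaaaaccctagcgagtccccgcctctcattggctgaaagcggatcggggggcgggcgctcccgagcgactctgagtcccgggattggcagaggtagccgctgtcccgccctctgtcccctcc
A match of letters is a description and does not show that a factor binds.

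Genes of the ATF4 and amino acid response went both ways. Of 22 members of the ATF4 and amino acid response list 8 fell and 3 rose (median -0.15), and 5 fell without day 1 replicate 2. Over all genes 7.01% were called lower and 9.73% higher. The serine synthesis enzyme Phgdh had 906, 952 and 794 CPM at day 1 and 593, 596 and 579 CPM at day 5 (-0.58 ± 0.11, adjusted p = 1.6e-04), and Psat1, the next enzyme of the pathway, was at -0.36 ± 0.08. Mthfd2 (-0.31), of mitochondrial folate metabolism, fell, as did the transcription factor gene Atf5 (-0.52). Chac1, which degrades glutathione, had 8.49, 7.75 and 8.54 CPM against 5.97, 5.67 and 6.58 CPM (-0.44 ± 0.10, adjusted p = 0.0021), a call lost without day 1 replicate 3 or day 5 replicate 2. Slc7a11, the cystine importer, rose from 199, 187 and 159 CPM to 340, 345 and 338 CPM (0.91 ± 0.09, adjusted p = 3.3e-08). Vldlr, a lipoprotein receptor, rose from 17.8, 16.8 and 16.9 CPM to 25.4, 27.0 and 25.5 CPM (0.60 ± 0.08), and Nupr1 rose by 0.44. Atf4 itself was at 172 CPM and 177 CPM on average (0.04, adjusted p = 0.59). In NaJa-D, 8 of the 22 genes differed from NaJa-F: Chac1 rose there (0.91, difference -1.36, adjusted p = 1.6e-06), and Slc7a11 was at 0.00 (difference 0.91, adjusted p = 5.3e-05). Slc7a11 also differed from encorafenib, where it was at 0.07 (adjusted p = 6.4e-05).

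The amino acid response element, searched as TGATGNAA on both strands, was held by 8 of the 20 list promoters in the RefSeq table (Trib3, Asns, Chac1, Slc7a11, Vldlr, Nupr1, Aars and Gars) and by 2.64% of all promoters. The promoters of 3 genes are shown, since the same letters stand in genes that rose and in a gene that fell. They lie at chr3:50443564-50443863 on the minus strand (Slc7a11), chr19:27216770-27217069 on the plus strand (Vldlr, the second of 2 entries) and chr2:119350992-119351291 on the plus strand (Chac1), all in GRCm38.p6, and are written 5′ to 3′ with the matches in capitals.
Slc7a11: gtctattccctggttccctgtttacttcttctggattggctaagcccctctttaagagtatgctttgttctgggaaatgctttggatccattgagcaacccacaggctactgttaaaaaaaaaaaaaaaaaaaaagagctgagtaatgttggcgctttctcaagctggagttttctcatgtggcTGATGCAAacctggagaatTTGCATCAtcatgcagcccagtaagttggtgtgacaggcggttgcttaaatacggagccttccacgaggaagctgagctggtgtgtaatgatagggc
Vldlr: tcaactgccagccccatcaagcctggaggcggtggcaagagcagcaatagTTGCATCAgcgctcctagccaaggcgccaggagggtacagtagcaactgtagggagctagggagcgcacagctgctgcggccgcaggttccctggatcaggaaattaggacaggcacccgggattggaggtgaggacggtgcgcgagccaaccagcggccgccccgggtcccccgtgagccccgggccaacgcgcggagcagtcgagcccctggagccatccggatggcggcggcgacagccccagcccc
Chac1: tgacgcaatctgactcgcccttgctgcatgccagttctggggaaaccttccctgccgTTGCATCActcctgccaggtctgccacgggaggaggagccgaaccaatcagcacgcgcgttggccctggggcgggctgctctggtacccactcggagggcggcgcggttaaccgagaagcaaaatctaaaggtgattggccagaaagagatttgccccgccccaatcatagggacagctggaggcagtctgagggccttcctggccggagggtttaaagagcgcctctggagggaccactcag
Slc7a11 held 2 matches, 1 on each strand, and Vldlr and Chac1 held 1 each. Slc7a11 and Vldlr rose, and Chac1 fell.

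The mRNAs of the mitochondrial genome had the largest median shift of the gene lists. Of 13 genes 12 fell and 0 rose (median -0.85), and the libraries of the days did not overlap in any of the 13 (51.3% of all genes). mt-Co1, a subunit of cytochrome oxidase and the most abundant of them, had 14566, 14247 and 12888 CPM at day 1 and 7181, 5807 and 6178 CPM at day 5 (-1.13 ± 0.13, adjusted p = 1.9e-07). mt-Cytb had 6355, 6248 and 5994 CPM against 3212, 2553 and 2758 CPM (-1.13 ± 0.13), and mt-Nd1, of complex I, had 7030, 6861 and 6271 CPM against 4057, 3467 and 3713 CPM (-0.85 ± 0.11). mt-Atp8, at under 2 CPM, did not pass (-0.76, adjusted p = 0.052). The mitochondrial share of all counts was 3.80, 3.68 and 3.52% at day 1 and 2.14, 1.78 and 1.91% at day 5. 6 genes (mt-Co2, mt-Co3, mt-Atp6, mt-Atp8, mt-Nd3 and mt-Nd4l) had under 50 CPM, and 4 nuclear copies of mitochondrial sequence that fell beside them, Gm29216 (-1.01), Gm13340 (-0.97), Gm28661 (-0.95) and Gm13341 (-0.92), can share reads with them, so that these values are uncertain. Nuclear genes of the respiratory chain moved less, with 4 of 22 called lower and 0 higher (median -0.14), among them Cycs (-0.34) and Atp5b (-0.27). Without day 1 replicate 2 none of the 22 was called, 1 without day 5 replicate 2, and 2 without day 1 replicate 1 or day 5 replicate 3. In encorafenib the list median was -0.84 and no member differed from DMSO. In NaJa-D and NaJa-G the medians were -1.52 and -1.64, where 2 and 4 members differed from NaJa-F, mt-Nd5 in both.

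**Figure D4:**
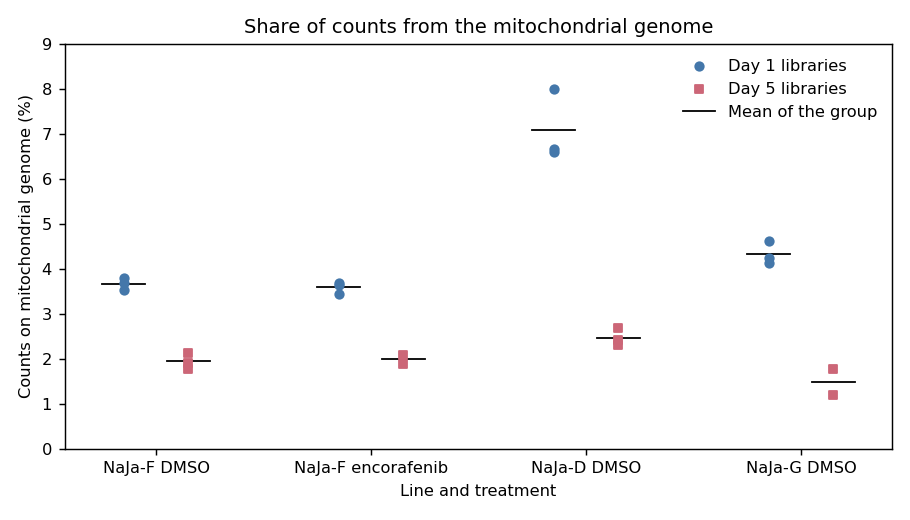
Percent of each library's counts on the mitochondrial genome (y axis) in NaJa-F DMSO, NaJa-F encorafenib, NaJa-D DMSO and NaJa-G DMSO (x axis), with day 1 as blue circles, day 5 as red squares and group means as black lines. In NaJa-F DMSO the 3 day 1 libraries lie from 3.52 to 3.80% and the day 5 libraries from 1.78 to 2.14%, and in each of the other groups day 1 also lies above day 5.

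Hypoxia, clock and antioxidant genes rose in part. The background for each list here is 9.73% of all genes called higher and 7.01% called lower. Of 17 hypoxia genes 6 rose and 2 fell (median 0.14). Bnip3, a mitophagy receptor, had 11.2, 11.1 and 10.0 CPM at day 1 and 18.7, 18.6 and 18.6 CPM at day 5 (0.79 ± 0.11, adjusted p = 3.4e-06), and the histone demethylase Kdm3a (0.58), the kinase Pdk1 (0.42) and Vegfa (0.36) rose, while Car9 was lower at under 2 CPM (-0.56), a call lost without 5 of the libraries in turn. The change of Bnip3 was larger in NaJa-D (1.57, adjusted p of the difference 0.0014). Of 18 glycolysis genes, Pfkp (0.39) and Aldoc (1.31, from 4.75, 3.61 and 3.96 CPM to 10.6, 9.91 and 9.70 CPM) rose and 0 fell, a share of risers near the background. Of 15 circadian clock genes 6 rose and 1 fell (median 0.30), and 3 rose without day 1 replicate 1 or day 5 replicate 1 or 2. The repressor Nr1d2 had 46.3, 42.8 and 46.1 CPM against 55.5, 55.9 and 55.3 CPM (0.30 ± 0.06), Per1 was at 0.32 and Ciart at 0.47, and Nfil3 fell (-0.34). As each day was a single harvest, a phase and a trend in these genes cannot be told apart. Of 19 antioxidant genes 4 rose and 0 fell, with the glutathione transferases Gstm1 at 15.4, 15.3 and 13.7 CPM against 32.7, 33.7 and 31.2 CPM (1.14 ± 0.07, adjusted p = 9.2e-12) and Gsta4 at 1.39. In encorafenib Gstm1 and Gsta4 were lower at day 5 (-0.56 and -1.02), and both changes differed from DMSO (adjusted p = 4.6e-12 and 7.9e-13). Trp53inp1, a p53 target, rose from 9.14, 7.91 and 8.69 CPM to 19.8, 19.1 and 20.4 CPM (1.21 ± 0.12), in a list of 18 p53 targets of which 3 rose and 1 fell.

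Epithelial and mesenchymal markers went both ways. Over all genes 9.73% were called higher and 7.01% lower, and few members of the epithelial list were called. Of 20 epithelial genes 3 fell and 1 rose (median -0.07). The keratins Krt8 (1490, 1552 and 1339 CPM against 1128, 1107 and 1089 CPM, -0.40 ± 0.10, adjusted p = 0.0047) and Krt18 (-0.33), calls lost without 4 and 5 of the libraries in turn, and the cadherin Cdh17 (-0.34) were the genes that fell, and Vil1 rose from 0.75, 0.62 and 0.73 CPM to 1.43, 1.52 and 1.72 CPM. Cdh1 stood at 858, 865 and 764 CPM and 795, 810 and 783 CPM (-0.06, adjusted p = 0.59), a direction that turned to 0.02 with scaling by library totals, and Epcam at 501, 503 and 488 CPM and 447, 449 and 446 CPM (-0.15, adjusted p = 0.096). Of 15 mesenchymal genes 3 rose and 3 fell, and 6 rose with scaling by library totals. Vim, the intermediate filament of mesenchymal cells, fell from 466, 472 and 409 CPM to 323, 327 and 304 CPM (-0.50 ± 0.10, adjusted p = 3.7e-04), as did Snai2 (-0.45) and Fn1. Prrx1, a mesenchymal transcription factor, rose from 2.56, 2.52 and 2.5 CPM to 5.05, 5.23 and 5.89 CPM (1.09 ± 0.12), and Sparc (1.07) and Zeb2 (0.26) rose. In encorafenib Prrx1 was lower at day 5 (-1.97, adjusted p of the difference 2.4e-08). Of 12 enterocyte genes present, 4 rose and 2 fell, with Ceacam1 rising from 75.9, 75.3 and 77.5 CPM to 111, 117 and 118 CPM (0.59 ± 0.06) and Aqp8 and Cdhr2 (-0.50) falling, and 15 of the 27 listed enterocyte genes were absent. The intestinal factor Cdx2 was at 52.7, 52.6 and 49.7 CPM and 56.0, 54.3 and 55.0 CPM (0.09, adjusted p = 0.40).

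Of 18 TGF-β targets 6 rose and 4 fell (median 0.14), beside 9.73% of all genes called higher and 7.01% called lower. The list had 3 risers without day 1 replicate 3 or day 5 replicate 3, and 2 genes fell without day 1 replicate 1 or 2. Tgfbi and Tgfb2 (0.72) were among those that rose and Pmepa1 (-0.29), Ltbp1 (-0.27) and Smad7 (-0.22) among those that fell, and the BMP targets Id2 (0.43 ± 0.06) and Id3 (0.28) rose too. Of 20 YAP targets and fetal intestinal markers 5 fell and 1 rose (median -0.12), and 3 fell without day 1 replicate 2. Ccn1, a matricellular YAP target, had 603, 628 and 618 CPM at day 1 and 397, 402 and 403 CPM at day 5 (-0.62 ± 0.06, adjusted p = 4.3e-08). The tissue factor gene F3 (-0.44) and Ankrd1 (-0.29) fell as well, the latter called in 3 of the 6 fits that left out a library, while Ccn2 was at -0.04. The 1 riser, Ly6d, averaged 0.23 CPM at day 1 and 0.89 CPM at day 5. Of 19 SRF and actin genes 5 fell and 0 rose (median -0.12), among them Actn1 (-0.37) and Actb (6090, 6428 and 5790 CPM against 4576, 4649 and 4572 CPM, -0.41 ± 0.10), and 1 fell without day 1 replicate 2. In NaJa-G 7 of the 20 YAP list genes and 7 of the 19 SRF list genes differed from NaJa-F, with Ankrd1 at -1.19 there.

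Inflammatory genes fell in part. Of 19 NF-κB targets and chemokines 7 fell and 1 rose, although the median was 0.01 (background 7.01% called lower and 9.73% higher). Tnfaip3, the feedback inhibitor A20, had 82.5, 84.2 and 88.0 CPM at day 1 and 54.9, 54.4 and 55.9 CPM at day 5 (-0.62 ± 0.06, adjusted p = 7.9e-09). The myeloid growth factor genes Csf1 (83.1, 84.2 and 81.4 CPM against 60.5, 62.2 and 62.3 CPM, -0.43 ± 0.05) and Csf2 (-0.85 ± 0.13) and the NF-κB subunit gene Relb (-0.43) fell, and the alarmin gene Il33 rose (0.78 ± 0.13, from 2.42 to 4.10 CPM on average). Of 22 interferon response genes 4 rose and 0 fell (median 0.11), and 2 rose without any 1 library other than day 1 replicate 1. Ifitm3, a membrane protein that restricts virus entry, rose from 0.48, 0.30 and 0.36 CPM to 4.09, 4.05 and 4.91 CPM (3.52 ± 0.33, adjusted p = 6.4e-09), and the other 3 were Parp9 (0.38), Parp14 (0.51) and Ddx58 (0.19). In encorafenib Ifitm3 was at -1.88 (0.82 and 0.26 CPM on average), and the difference of 5.41 passed the test (adjusted p = 2.4e-07). Of 14 class I antigen presentation genes H2-T23 rose (0.55 ± 0.11), H2-D1 fell (-0.32, adjusted p = 0.0086, lost without any 1 library), and H2-K1 was at -0.20 (adjusted p = 0.053).

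Markers of other cells that a peritoneal culture could hold were low. None of 9 lymphocyte markers was in the table, and of 12 macrophage markers 5 were, without Ptprc, Adgre1 or Itgam, with a summed level of 38.4 to 40 CPM at day 1 and 35.8 to 36.7 CPM at day 5, mostly from Cd14. Of these 5, Mrc1 fell (3.71 to 2.23 CPM on average, -0.73). Of 10 fibroblast markers 6 were in the table, at a sum of 4.84 to 5.12 CPM and 6.00 to 6.80 CPM, and Pdgfra (0.45) and Col3a1 rose. Of 8 endothelial markers 3 were present, at a sum of 3.98 to 4.35 CPM and 3.47 to 3.88 CPM, none called, and Pecam1 and Cdh5 were absent. Of 10 mesothelial markers 6 were present, with Wt1 and Muc16 absent, Upk3b higher and Bnc1 lower at under 0.4 CPM, and the sum of 1671 to 1789 CPM and 1512 to 1565 CPM came from Msln and Krt19, which epithelial tumour cells also express (Msln -0.25, adjusted p = 0.095). The part of other cells in the collagen changes above was not tested.

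The time change was compared directly with those in the other lines and in encorafenib. Against NaJa-D, 624 genes (4.42%) changed by unequal amounts, 424 of them more positively in NaJa-F, and with scaling by library totals the split turned, with 32.7% of 686 genes more positive against 67.9% here. The count was 268 without the NaJa-D library whose cell line field names NaJa-G. Prl2c3 fell further in NaJa-D (-2.68, from 25.2 to 3.92 CPM on average) than in NaJa-F (difference 1.75, adjusted p = 4.2e-07). Tgfbi had 19.1 and 18.5 CPM on average in NaJa-D (-0.04) and differed by 1.69 (adjusted p = 4.7e-08). Stc1, a hypoxia-responsive hormone gene, rose in NaJa-F (14.4, 13.4 and 15 CPM against 19.8, 19.7 and 20.8 CPM, 0.50) and fell in NaJa-D and NaJa-G (-0.92 and -0.74; adjusted p of the differences 1.8e-06 and 1.2e-07). Ugt2b34, a glucuronosyltransferase, rose in NaJa-F (15.1, 13.6 and 12.2 CPM against 22.6, 23.9 and 23.5 CPM) and averaged 0.15 and 0.039 CPM in NaJa-D, where its change was not called (-2.29 ± 0.74, adjusted p = 0.015), so that its fitted difference (3.07, adjusted p = 0.0083) rests on counts near 0 in NaJa-D. The same holds for Cyfip2, which averaged 0.30 and 0.29 CPM in NaJa-D (difference 1.60). Of the 1372 genes higher in NaJa-F, 672 were also called higher in NaJa-D, 20 lower and 680 not called. Of all 14107 genes, 1938 were called higher and 2152 lower in NaJa-D (29% in either direction). Of the 989 lower genes, 705 were called lower in NaJa-D, 5 higher and 279 not called.

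Against NaJa-G, 885 genes (6.27%) changed by unequal amounts, 453 more positively and 432 more negatively in NaJa-F. The NaJa-G libraries were more spread than those of NaJa-F. The 2 of day 5 in DMSO had 69.1 times the variance of counting noise between them. Day 1 replicate 1 had 48.3 and 46.7 times with replicates 2 and 3. The share more positive was 51.2%, and 40.3 to 42.1% without any 1 of the day 5 libraries of NaJa-F. Tnfsf15, a TNF family cytokine, rose in NaJa-F from 4.17, 4.87 and 4.38 CPM to 6.80, 7.92 and 7.71 CPM (0.74) and fell in NaJa-G from a low level, 1.86 to 0.57 CPM on average (-1.68, difference 2.41, adjusted p = 5.0e-06). Penk, which encodes proenkephalin, rose in NaJa-F from 4.01, 4.30 and 3.76 CPM to 11, 10.6 and 11.2 CPM, whereas in NaJa-G it averaged 44.8 and 46 CPM (0.03). Bmf, a pro-apoptotic BH3-only gene, rose in both (1.25 and 2.60), more in NaJa-G (difference -1.35, adjusted p = 5.5e-04), as did Cyp2s1 (0.93 and 2.26, difference -1.32). Lce1h fell in both, more in NaJa-G (difference 1.60). Of the 1372 genes higher in NaJa-F, 1000 were also called higher in NaJa-G, 14 lower and 358 not called. Of the 989 genes lower in NaJa-F, 735 were also called lower in NaJa-G, 19 higher and 235 not called. Of all 14107 genes, 2432 were called higher and 2372 lower in NaJa-G (34.1% in either direction). In all 3 lines together 1104 genes were called, of which 530 rose in each, 541 fell in each and 33 differed in direction.

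Against encorafenib in NaJa-F, 830 genes (5.88%) changed by unequal amounts, and 699 of these (84.2%) were more positive in DMSO. Time in culture and time in the drug cannot be told apart in the encorafenib arm. Its 2 libraries of day 5 had 46.5 times the variance of counting noise between them. Among called genes of at least 2 log2 CPM without overlap between the days, the 5 most unequal rose in DMSO and were lower at day 5 in encorafenib. Cadps averaged 5.26 and 1.41 CPM in encorafenib (-1.89, difference 4.14, adjusted p = 8.4e-15), Dync1i1, a dynein intermediate chain, 7.79 and 2.58 CPM (difference 3.29) and Penk 2.46 and 0.78 CPM (difference 3.05), besides Nkd1 and Notum. At day 1 Cadps, Dync1i1, Nkd1 and Notum were already higher in encorafenib than in DMSO (Cadps 5.26 against 2.71 CPM), whereas Penk was lower (2.46 against 4.03 CPM). Of the 1372 genes higher in DMSO, 488 were also called higher in encorafenib, 168 lower and 716 not called. Of all 14107 genes, 1433 were called higher and 1741 lower in encorafenib (22.5% in either direction). Of the 989 genes lower in DMSO, 448 were called lower, 11 higher and 530 not called. The median change of the 1372 was 0.41 in DMSO and 0.18 in encorafenib. These genes were chosen by their DMSO change, and the second median was not.

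Called genes differed in length and base composition. Genes that rose had a median genomic span of 62.9 kb, against 21.1 kb for all genes and 13.6 kb for genes that fell, and a median GC content of the longest transcript of 47.2% against 49.7% and 52.2%. Over 5 equal groups of genes from the shortest to the longest, the share called higher went from 2.60 to 4.02, 6.51, 11.7 and 23.8%, and the share called lower was 7.93, 10.9, 7.79, 5.72 and 2.74%. The median log2 fold change went from -0.08 in the shortest group to 0.14 in the longest in NaJa-F, from -0.07 to 0.16 in NaJa-G, and from 0.01 to 0.02 in NaJa-D. With the dependence on span removed in each library, 2006 genes were called, 1623 of them shared with the calls here. The WNT list then had 9 risers (median 0.21), the cholesterol list 14 (median 0.30), and the ribosome biogenesis list 10 genes that fell (median -0.21), while the number that fell dropped from 8 to 4 in the ERK list, from 8 to 4 in the ATF4 list and from 5 to 2 in the SRF and actin list. What sets this slope was not tested.

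**Figure D5:**
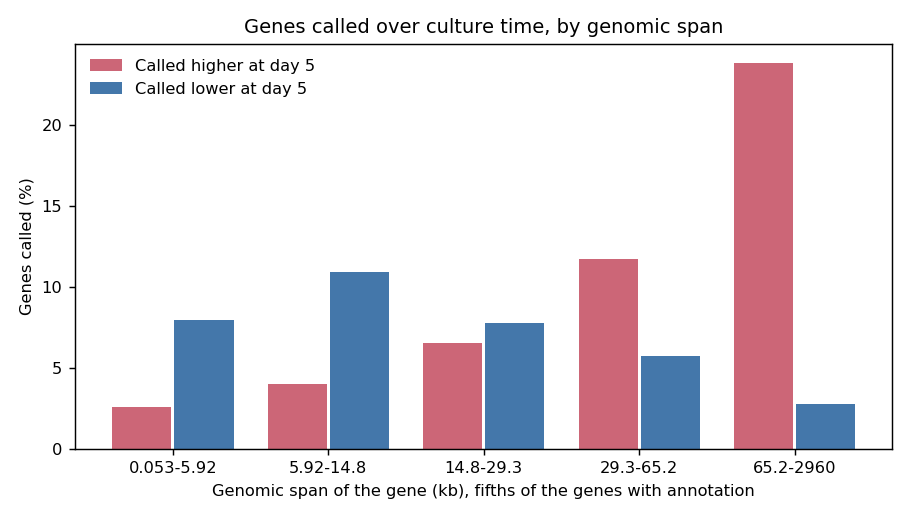
Percent of genes called higher (red bars) and lower (blue bars) at day 5 in NaJa-F DMSO (y axis) in 5 equal groups of genes ordered by genomic span from start to end (x axis, kb). The share called higher climbs from 2.60% to 23.8% and the share called lower is 10.9% in the second group and 2.74% in the longest.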

How the data were processed

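RNA of NaJa cells was sequenced by the authors, who trimmed reads with Trimmomatic 0.39 and aligned them with STAR 2.5.2b to GRCm38 (mm10), per the submitters' processing notes. The authors deposited whole-number read counts for each gene, not normalized. Which program counted, with which gene models and whether by strand, is not given in the sources used here, so overlapping and antisense genes cannot be told apart. A summed count above 2, TMM scaling, limma and an adjusted p below 0.01 are named in the study's methods, and the smallest summed count in the table was 360.

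All 34 libraries, in 12 groups of line, treatment and day from their titles, were fitted in R 4.3.3 with limma 3.58.1 (voom weights) and TMM factors from edgeR 4.0.16, with a mean for each group. Tests were two-sided and adjusted by Benjamini-Hochberg over all 14107 genes. Differences of the time change were contrasts of the same fit. GENCODE M21 gave symbol and position for 14064 identifiers and lacked 43. Promoters came from RefSeq. Alternatives included edgeR, DESeq2 1.42.0, other scalings, filters and sets of libraries, thinning to equal depth and a replicate block. Corrections for GC content and gene span (lowess of span 0.3) and leaving out the mitochondrial genes were added after seeing the data. On simulated data for this comparison (14107 genes), 34, 70, 92 and 96% of 50 genes changed by 1.25, 1.5, 2 and 3 fold were recovered, with 2 false calls among 13907 unchanged genes. The simulated counts were drawn independently for each gene, without an outlying library or a trend with gene span. The false calls therefore do not give the rate in the real data. Far fewer genes changed in the simulation than were called here, so the shares recovered may also differ in the real data.

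Genes are named by a rule: those of the engineered alleles, members of the gene lists, the 15 highest and 15 lowest log2 fold changes among called genes of at least 2 log2 CPM without overlap between days, and the 5 most unequal genes of each difference under the same limits. The members and lists were chosen with earlier results of these data known. Some genes that meet the rule are not reported here.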

Additional observations from a re-analysis of the deposited data

Results flagged for a closer look

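Each result here is a difference between the time change of NaJa-F in DMSO and the same change in another line or in encorafenib that passed its own test in the model (limma, adjusted p below 0.01). The genes named are the 5 with the largest difference among those called in NaJa-F, with at least 2 log2 CPM there and no overlap between the days. Against NaJa-D, 624 genes differed, among them Prl2c3 (1.75), Tgfbi (1.69) and Stc1 (1.42), each on the log2 scale as NaJa-F minus NaJa-D. Ugt2b34 (3.07) and Cyfip2 (1.60) also differed, but averaged at most 0.30 CPM in NaJa-D at both days, so that their differences rest on counts near 0. Against NaJa-G, 885 genes differed, with Tnfsf15 (2.41), Lce1h (1.60) and Penk (1.41) more positive in NaJa-F and Bmf (-1.35) and Cyp2s1 (-1.32) more negative. Against encorafenib, 830 genes differed, with Cadps (4.14), Nkd1 (3.32), Dync1i1 (3.29), Penk (3.05) and Notum (2.97) more positive in DMSO. Penk stands in both of the last lists. No reason for these differences was tested. Groups of 3 libraries were too small for a test of single outlying libraries.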

How the results depend on the processing

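Between the days 2361 genes were called, against 2298 by edgeR (2218 shared) and 2592 by DESeq2 (2287 shared), and in no alternative did a gene called in both fits change sign. The count moved to 4053 at an adjusted p below 0.05 and to 197 when a change of 1 or more on the log2 scale was also required. Leaving out 1 library gave 1462 to 1944 calls. For the difference from NaJa-D (624 genes), DESeq2 gave 955, and 268 were called without the library whose cell line field names NaJa-G (264 of them among the 624), with 268 to 761 over all single libraries left out (410 without NaJa-F day 1 replicate 3, and 403 and 386 without day 5 replicates 1 and 2). The difference from NaJa-G (885) ran from 567 (without NaJa-F day 1 replicate 1) to 831 and that from encorafenib (830) from 577 to 794 over such fits. The 6 libraries alone gave 3314 calls, equal depth 2189, the GC correction 2596, the span correction 2006 and leaving out the mitochondrial genes 2414, of which 1207 were higher. Scaling by library totals turned Trp53 to 0.027 and Cdh1 to 0.023, and the span correction turned Trp53 to 0.033, none of them called, and the cause was not tested. Of 148 genes checked singly and called, 107 kept their call in every alternative run that held the gene and kept the threshold. The adjusted p below 0.05 and the required change of 1 or more were left out of this tally.

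Replicate numbers did not pair the libraries: deviations of same-numbered libraries correlated at 0.05, -0.0021 and 0.05. With the replicate block 2203 genes were called, and 524, 717 and 761 for the 3 differences. Totals of the NaJa-F DMSO libraries ran from 57.3 to 69.3 M, with day 1 replicates 2 and 3 the deepest. With all libraries thinned to equal depth 2189 genes were called. The self-test recovered fewer genes at a fold of 1.25 than at 2, so small changes are likelier to be missed than large ones.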

Other observations

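Lists not described above changed in few members. Over all genes 9.73% were called higher and 7.01% lower, so that single calls say little about a list. Of 15 heat shock genes the mitochondrial chaperonin gene Hspe1 fell (-0.29) and 0 rose. Of 17 unfolded protein response genes the lumenal chaperone genes Hspa5 (922, 917 and 857 CPM against 712, 719 and 706 CPM, -0.33), Calr (-0.35) and Hyou1 (-0.29) fell and Dnajb9 rose (0.25), with none of the 3 called lower without day 1 replicate 1 or 2, and 5 of the 17 differed from NaJa-D, where the median was -0.23. Of 22 lysosome genes Ctsl (1369, 1354 and 1276 CPM against 926, 915 and 917 CPM, -0.54) and Ctsz (-0.38) fell and Neu1 rose (0.37). Of 13 Notch genes Hes6 (0.84) and Notch1 (0.93) rose and Hes1 fell (-0.35), and Hes1 differed from NaJa-G, where it was at 0.35. Of 16 fatty acid oxidation genes 5 rose (3 without day 5 replicate 1), among them Ppargc1a (0.46), and the lipid droplet gene Plin2 fell (-0.50). In encorafenib 6 of the 16 differed. Of 10 metal handling genes Slc40a1 (0.63) and Cp (0.84) rose, and of 17 cornified and squamous type genes Krt23 (0.83) and Sprr2a3 rose and Sfn fell (-0.52). None of the 7 histone genes in the table was called.

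Outside the lists, and chosen after their values were seen, Lars2 had 390, 221 and 284 CPM at day 1 and 524, 628 and 603 CPM at day 5 (1.00 ± 0.19, adjusted p = 2.8e-04), and Mir6236 had 82.8, 40.2 and 56.9 CPM against 115, 131 and 121 CPM (1.09 ± 0.24, adjusted p = 0.0011). In both genes the day 1 libraries were widely spread, and the source of these reads was not tested.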
